A study of Arabidopsis thaliana with 58 samples.

Results

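The photosynthetic electron transport chain of the thylakoid membrane is built from chloroplast-encoded core proteins and from subunits that are encoded in the nucleus. The 35 nuclear genes described here encode subunits of photosystem I (12 genes), the oxygen-evolving side of photosystem II (6 genes), other parts of photosystem II (5 genes), the chain from the cytochrome b6f complex to ferredoxin-NADP+ reductase (8 genes), and the ATP synthase and the NDH complex (4 genes). They were chosen by name, as loci, and not by a measured value, but with earlier results of these data known. They are 35 of the 23898 genes listed in any of the 7 tables, and every table listed all 35.

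Wild-type Arabidopsis plants of the ecotype Columbia-0 were grown hydroponically with 1.5 mM Mg, and from 10 days after germination (day 0) the Mg-deficient plants received no Mg (0 mM), with sodium sulphate in place of magnesium sulphate, while the control plants stayed at 1.5 mM. RNA was sequenced from mature leaves (the first pair) and expanding leaves (the next pair) of plants 13, 15 and 18 days old, which are days 3, 5 and 8 of treatment. Roots were taken on day 3 only. In mature leaves 4 control libraries were set against 3 Mg-deficient libraries on day 3, 5 against 3 on day 5, and 4 against 4 on day 8. In expanding leaves the numbers were 5 against 4, 5 against 3, and 4 against 5, and in roots 6 against 3. Each library was a composite of 2 or 3 plants and was kept for sequencing on RNA quality, so that p-values measure the spread between these composites.

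In photosynthesis, photosystem II takes electrons from water at its oxygen-evolving complex, plastoquinone and the cytochrome b6f complex pass them to plastocyanin, and photosystem I lifts them to ferredoxin, from which ferredoxin-NADP+ reductase makes NADPH. The proton gradient built on the way drives the chloroplast ATP synthase, and the NDH complex returns electrons from ferredoxin to plastoquinone in cyclic flow. Mg is the central ion of chlorophyll, which both photosystems bind. In leaves the nuclear genes of this chain are known to be expressed strongly and together, mainly in mesophyll cells.

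The values below are the deposited normalised signal, a read count per gene adjusted to a common library size within a table. Tables were normalised separately and signal was not corrected for gene length, so levels of the 35 genes were compared only within a table and a gene. The marker sums that end this paragraph cross tables and genes, and only describe the tissues. Libraries held between 546011 and 4014659 reads (median 1964031). The library labelled Mg-deficient replicate 1 of expanding leaves on day 5 stood apart, with a read on 12656 genes against 15948 and 16654 in the other Mg-deficient libraries and 17189 to 18283 in the controls. In mature leaves on day 8, the controls had a read on 6908 to 14479 genes and the Mg-deficient libraries on 12541 to 16862, and in expanding leaves on day 8 the ranges were 12275 to 15172 and 18422 to 18718. The summed signal of 6 root markers was at most 34.95 in any leaf library and at least 4364 in any root library, and 5 leaf mesophyll markers, none of them among the 35 genes, summed to 13320 or more in every leaf library and 809.6 or less in every root library.

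The promoters of the genes that mark the extremes of the response are shown first, as the 250 bases before the gene start annotated by RefSeq (TAIR10.1). NDHL and PSBQ1 had the largest falls of day 8, FD2 the smallest, and FNR1 and FNR2 encode the same enzyme, and their log2 ratio shifted in opposite directions on days 5 and 8 without a call. Capitals mark a G-box (CACGTG) or an I-box (GATAAG, or CTTATC on the other strand), short motifs known from promoters of light-regulated genes.
NDHL (AT1G70760, chr1:26686952-26687201, plus strand): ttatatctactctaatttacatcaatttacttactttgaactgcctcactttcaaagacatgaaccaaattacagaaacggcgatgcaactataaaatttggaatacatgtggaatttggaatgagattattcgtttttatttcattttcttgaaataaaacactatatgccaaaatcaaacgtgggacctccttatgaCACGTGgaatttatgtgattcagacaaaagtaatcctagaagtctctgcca
PSBQ1 (AT4G21280, chr4:11334102-11334351, plus strand): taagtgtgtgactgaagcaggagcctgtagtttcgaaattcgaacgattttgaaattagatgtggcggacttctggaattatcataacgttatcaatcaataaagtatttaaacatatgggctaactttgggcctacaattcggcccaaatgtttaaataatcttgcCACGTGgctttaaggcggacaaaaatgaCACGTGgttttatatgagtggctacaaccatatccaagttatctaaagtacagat
FD2 (AT1G60950, chr1:22444057-22444306, plus strand): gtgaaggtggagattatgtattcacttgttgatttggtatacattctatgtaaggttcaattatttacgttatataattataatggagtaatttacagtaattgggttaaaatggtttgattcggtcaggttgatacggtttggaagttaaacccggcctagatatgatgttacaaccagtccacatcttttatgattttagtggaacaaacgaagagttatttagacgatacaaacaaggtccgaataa
FNR1 (AT5G66190, chr5:26453200-26453449, minus strand): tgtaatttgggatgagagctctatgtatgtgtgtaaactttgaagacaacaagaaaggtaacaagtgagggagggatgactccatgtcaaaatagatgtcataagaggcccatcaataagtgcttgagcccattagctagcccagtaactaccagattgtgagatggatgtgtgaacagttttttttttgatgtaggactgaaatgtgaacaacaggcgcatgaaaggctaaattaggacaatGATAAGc
FNR2 (AT1G20020, chr1:6942375-6942624, plus strand): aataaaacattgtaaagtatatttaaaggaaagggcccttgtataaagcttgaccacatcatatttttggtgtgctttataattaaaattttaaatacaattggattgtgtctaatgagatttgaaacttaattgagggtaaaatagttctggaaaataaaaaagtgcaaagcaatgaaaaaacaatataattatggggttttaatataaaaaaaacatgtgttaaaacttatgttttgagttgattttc
A G-box lay 51 bases before the start of NDHL and 83 and 55 bases before that of PSBQ1, and an I-box 7 bases before that of FNR1. Neither motif was found in the windows of FD2 and FNR2. Of the 35 promoters, 7 (20%) held a G-box (PSAE2, PSAH2, PSBQ1, PSBQ2, PSBTN, ATPD and NDHL), against 6.49% of the 27437 promoters of the same length. An I-box was found in 9 (25.7%) against 12.29%. Also searched on both strands were CCAATC (known as a site of GLK factors), AGATATTT (a fragment of the evening element) and GCCGCC (the GCC-box). These were found in 4 (11.4%), 1 (2.9%) and 1 (2.9%) of the 35 promoters, against 10.23%, 4.79% and 1.87% of all promoters. A match describes the letters only, and no binding was measured.

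The genes were lower in Mg-deficient expanding leaves from day 5, while at most 2 of them passed the test in any other tissue or on any other day. At an adjusted p under 0.05 (limma on log2 of signal plus 1, Benjamini-Hochberg over all genes of a table), 23 of the 35 fell in expanding leaves on day 5 and all 35 on day 8, and 2 fell in mature leaves on day 8. None of the 35 rose in any of the 7 tables by limma or voom, and 3 were higher at an unadjusted p under 0.05, all in mature leaves on day 5. The median log2 fold change over the 35 genes was -0.07 (day 3), 0.22 (day 5) and -0.23 (day 8) in mature leaves. In expanding leaves it was -0.16, -1.14 and -2.44. In mature leaves on day 8 both values depended on the scaling. Under median of ratios (taken over genes above 0 in every library of the table) 26 of the 35 were called lower there, with a median of -2.03.

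**Figure D1:**
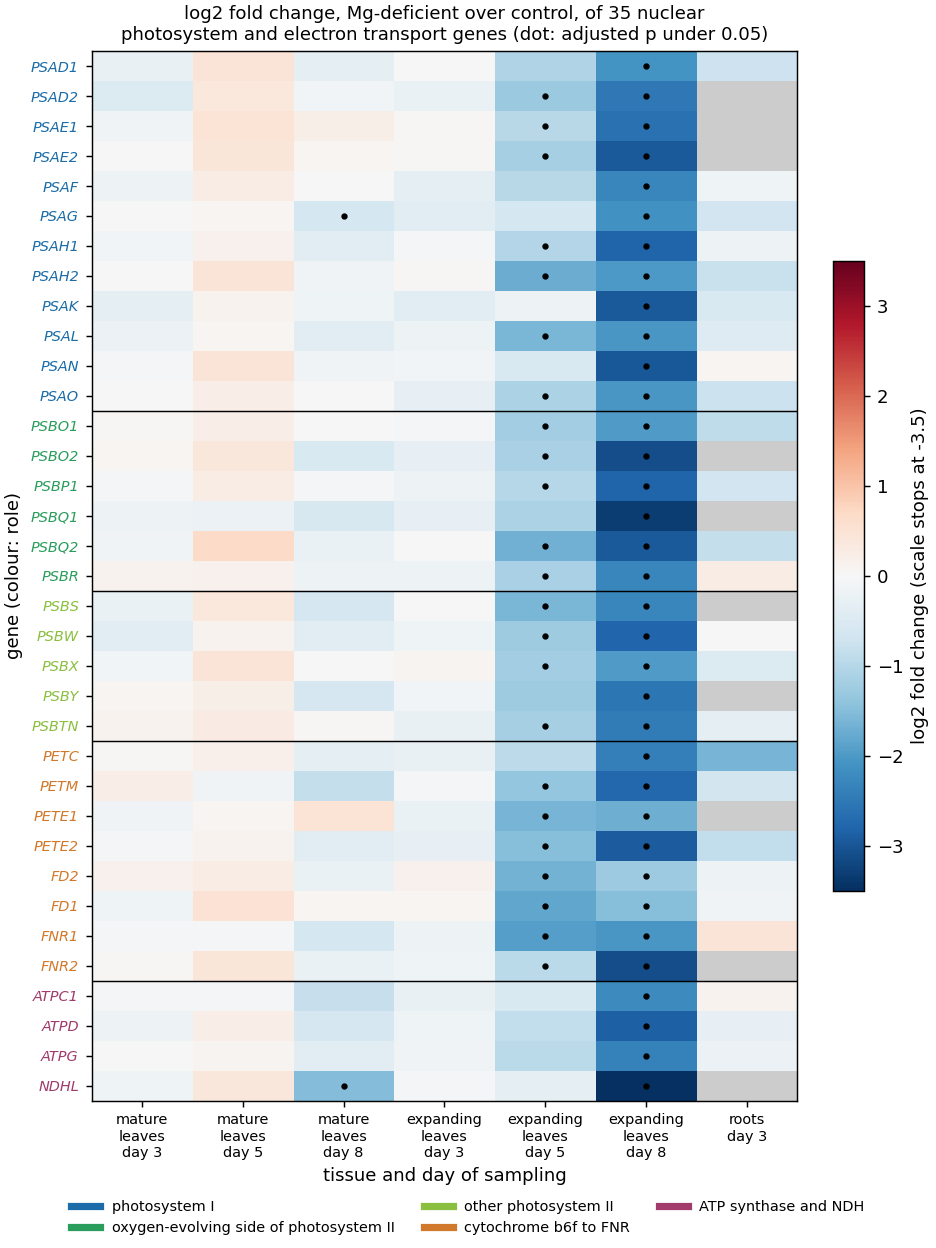
Log2 fold change of signal (Mg-deficient over control, colour) for each of the 35 genes (vertical axis, grouped by role) in each tissue and day (horizontal axis), where a dot marks an adjusted p under 0.05 and grey a gene that was not tested. The dots fill the column of expanding leaves on day 8 (35 of 35), take 23 of 35 places on day 5 and stand at PSAG and NDHL in mature leaves on day 8; the colour scale ends at -3.5, past which only NDHL lay (-5.26).

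The share of a library's reads that fell on the 35 genes was computed from the reads recovered by undoing the adjustment of the signal. In control expanding leaves this share was 7.0 to 7.86% on day 3 (median 7.39%), 8.42 to 9.65% on day 5 (median 9.19%) and 7.37 to 8.61% on day 8 (median 7.65%). In Mg-deficient expanding leaves it was 6.41 to 7.57% (median 6.99%), 2.87 to 5.56% (median 5.15%) and 0.79 to 1.91% (median 1.41%). The groups overlapped on day 3 and did not overlap on days 5 and 8. In mature leaves the 2 groups overlapped on every day, with medians of 7.98 and 7.67% on day 3, 6.24 and 6.55% on day 5, and finally 5.81 and 4.09% on day 8 for control and Mg-deficient plants. These shares are sums over the genes and carry no test.

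**Figure D2:**
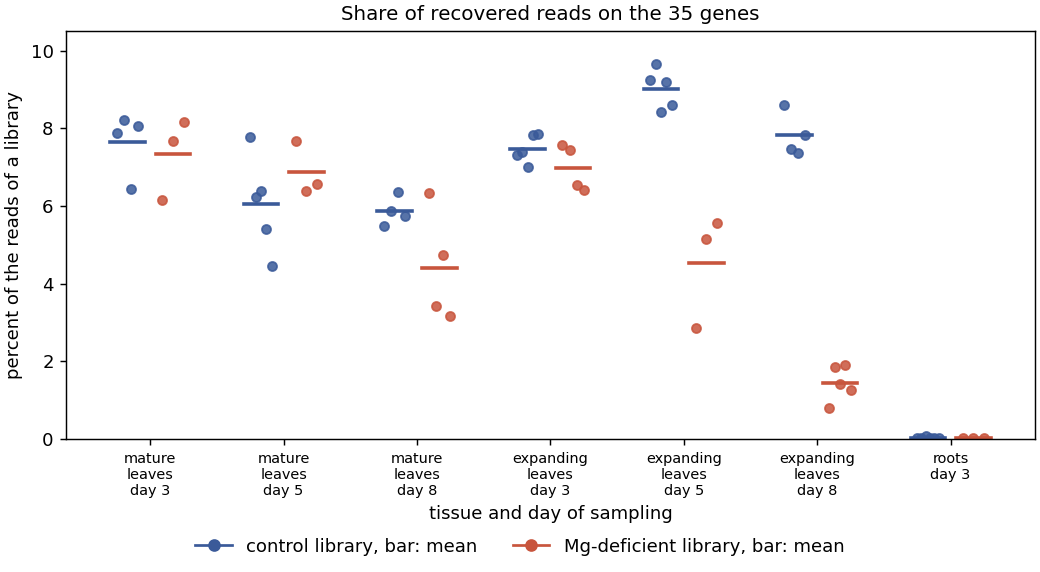
Percent of the reads of each library that fell on the 35 genes (vertical axis) by tissue and day (horizontal axis), with a point for each library and a bar at the group mean. The 5 Mg-deficient libraries of expanding leaves on day 8 lie between 0.79 and 1.91%, below the 4 control libraries at 7.37 to 8.61%.

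On day 3, no difference passed the test in either leaf type. In mature leaves 0 of the 35 genes were called lower by limma, where 0% of all 15079 genes tested were, and 0 were lower at an unadjusted p under 0.05, where 2.02% of all genes were. In expanding leaves 0 of 35 were called lower, against 0.0589% of all 15272 genes. At an unadjusted p under 0.05, 5 of 35 were lower, against 3.44% of all genes. These were PSAF (-0.34), PSAG (-0.37), PSAK (-0.37), PSBQ1 (-0.30) and PETE2 (-0.30), all log2 fold changes, and the median over the 35 genes was -0.16 against 0.03 over all genes. The voom method, which weights log counts by their precision, was run on the reads recovered from the signal and also called 0 of 35 in both tables.

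In expanding leaves on day 5, 23 of the 35 genes fell, where 14.8% of all 15570 genes tested were called lower and 13.7% higher. All Mg-deficient libraries lay below all controls for 30 of the 35 genes, against 17.8% of all genes. All 35 log2 fold changes were below 0, and their median was -1.14 against -0.34 over all genes. Under scaling by the median of ratios, which moved the median of all genes to -0.04, again 23 fell and the median was -0.83, while the calls over all genes turned from 2297 lower and 2132 higher to 1823 lower and 2562 higher. The count was 22 without Mg-deficient replicate 1, the library with the fewest genes and the lowest signal for 34 of the 35 genes. The median was then -0.77, and of the called genes 7 had a log2 fold change that was smaller by over 1.5 times, PSAE1 (-0.59), PSBW (-0.80), PSBTN (-0.70), PETM (-0.82), PETE2 (-0.96), FD2 (-1.06) and FNR2 (-0.60). Without Mg-deficient replicate 2 this held for PSBO2 (-0.73). The count was 12, 13, 10 and 15 without control replicate 1, 2, 4 or 5 in turn, with a median between -1.18 and -1.10. Leaf mesophyll markers moved less evenly on this day. Of 5, CA1 (carbonic anhydrase) was among 2 that fell and LHCB3 (an antenna protein) rose by 0.75 on the log2 scale, and their summed signal ranged over 68960 to 103172 in the controls and over 34700 to 101274 under deficiency. Of 6 vascular markers, 0 were called by limma or voom and 3 had an unadjusted p under 0.05, with a median log2 fold change of -1.19 (-0.52 without Mg-deficient replicate 1) and a summed signal that ranged over 574.7 to 711.4 in the controls and over 225.6 to 628.9 under deficiency. Of 5 guard cell markers, 0 were called by limma or voom (1 by limma without Mg-deficient replicate 1) and 1 had an unadjusted p under 0.05, with a median of -0.78 (-0.43 without that library) and sums of 234.2 to 338 and 110.9 to 305.4. Their part in the fall of the 35 genes was not tested. Here and below, fewer mesophyll cells and less RNA of these genes per cell cannot be told apart.

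Among the photosystem I genes, 7 of 12 fell on day 5, with a median log2 fold change of -1.04. PSAH2 (AT1G52230), for a subunit at the site where light-harvesting complex II docks, fell by 1.74, and PSAL (AT4G12800), for its neighbour there, by 1.60. PSAD2 (AT1G03130), PSAE1 (AT4G28750), PSAE2 (AT2G20260), PSAH1 (AT3G16140) and PSAO (AT1G08380) fell by 0.97 to 1.31. PsaD and PsaE form the stromal ridge that binds ferredoxin. The control libraries of PSAD2 had signals of 885, 846.5, 588.9, 872.8 and 897.7 and the Mg-deficient libraries 211.1, 366.8 and 443.5 (-1.31, SE 0.27, adjusted p = 0.0062). Those of PSAD1 (AT4G02770) were 5632, 5623, 4025, 5271 and 4451 against 1228, 2954 and 3841 (-1.04, SE 0.37, adjusted p = 0.057). The Mg-deficient libraries were lower in both genes without overlap, although only PSAD2 passed the test.

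PSAK (AT1G30380), for a subunit at the edge of photosystem I next to its antenna, had the smallest difference of the 35. Its signals were 4681, 5880, 5971, 4971 and 4403 in control and 2679, 5394 and 6352 in Mg-deficient libraries (-0.19, SE 0.34, adjusted p = 0.69). The groups overlapped, and the sign turned without Mg-deficient replicate 1 (0.19) and under median of ratios (0.11). PSAG (AT1G55670), a related edge subunit, had a log2 fold change of -0.61, PSAN (AT5G64040), on the lumenal side, -0.52, and PSAF (AT1G31330), which binds plastocyanin, -0.97, and none of these passed the test.

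On the oxygen-evolving side of photosystem II, 5 of 6 genes fell on day 5 (median -1.13). PSBO1 (AT5G66570) and PSBO2 (AT3G50820), for the protein that stabilises the manganese cluster, fell by 1.22 and 1.14, PSBP1 (AT1G06680), for a second extrinsic protein, by 1.01, and PSBR (AT1G79040), for a protein that helps to hold them, by 1.13. The extrinsic protein PsbQ has 2 genes. The signal of PSBQ2 (AT4G05180) was 3639, 5599, 2779, 4381 and 4081 in control and 726.2, 1633 and 1605 in Mg-deficient libraries (-1.69, SE 0.34, adjusted p = 0.0054). That of PSBQ1 (AT4G21280) was 3218, 3217, 4405, 3403 and 3229 against 590.8, 2647 and 2654 (-1.11, SE 0.46, adjusted p = 0.089). Neither gene overlapped between the groups, and the Mg-deficient libraries other than replicate 1 lay closer to the controls in PSBQ1 than in PSBQ2.

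Of the other photosystem II genes, 4 of 5 fell on day 5 (median -1.24). PSBS (AT1G44575), for the sensor of lumenal pH in the dissipation of excess light, fell by 1.60. The genes of the small subunits PSBW (AT2G30570), PSBX (AT2G06520) and PSBTN (AT3G21055) fell by 1.15 to 1.25. PSBY (AT1G67740), for another small subunit, had a log2 fold change of -1.24 with an SE of 0.45 and did not pass (adjusted p = 0.063).

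Of the 8 electron carriers, 7 fell on day 5 (median -1.56), and FNR1 and FD1 had the largest falls of the 35 genes. The groups of genes were not tested against each other. FNR1 (AT5G66190), for a leaf ferredoxin-NADP+ reductase, had signals of 1770, 1706, 1385, 1949 and 1856 in control and 212.7, 624.3 and 708.6 in Mg-deficient libraries (-1.92, SE 0.36, adjusted p = 0.0037). FD1 (AT1G10960), for a minor leaf ferredoxin, had 986.4, 1414, 1795, 1206 and 846.7 against 265.9, 385.8 and 377.2 (-1.83, SE 0.28, adjusted p = 0.0012). In both genes the highest Mg-deficient library was below the lowest control. FD2 (AT1G60950), for the main leaf ferredoxin, fell by 1.66, the plastocyanin genes PETE1 (AT1G76100) and PETE2 (AT1G20340) by 1.63 and 1.50, PETM (AT2G26500), for a small subunit of cytochrome b6f, by 1.35, and FNR2 (AT1G20020), for the second leaf reductase, by 0.95. PETC (AT4G03280), for the Rieske iron-sulphur protein of cytochrome b6f, had -0.91 and did not pass (adjusted p = 0.067).

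None of the 4 genes of the ATP synthase and the NDH complex passed limma's test on day 5 (0 of 4, with 2 at an unadjusted p under 0.05 and 1 called by voom). The log2 fold changes were -0.53 for ATPC1 (AT4G04640, gamma subunit), -0.85 for ATPD (AT4G09650, delta subunit) and -0.95 for ATPG (AT4G32260, a subunit of the stator stalk), and without Mg-deficient replicate 1 they were -0.17, -0.30 and -0.48. NDHL (AT1G70760), for a membrane subunit of the NDH complex, had signals of 698.8, 766.9, 840.8, 607.9 and 513.7 in control and 72.24, 1367 and 1565 in Mg-deficient libraries. Replicate 1 was far below the controls and the other Mg-deficient libraries were above all of them, so that the log2 fold change of -0.33 had an SE of 0.82 (adjusted p = 0.78). Without Mg-deficient replicate 1 it was 1.11 (adjusted p = 0.0025), and NDHL was then the 1 gene of the 35 called higher.

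**Figure D3:**
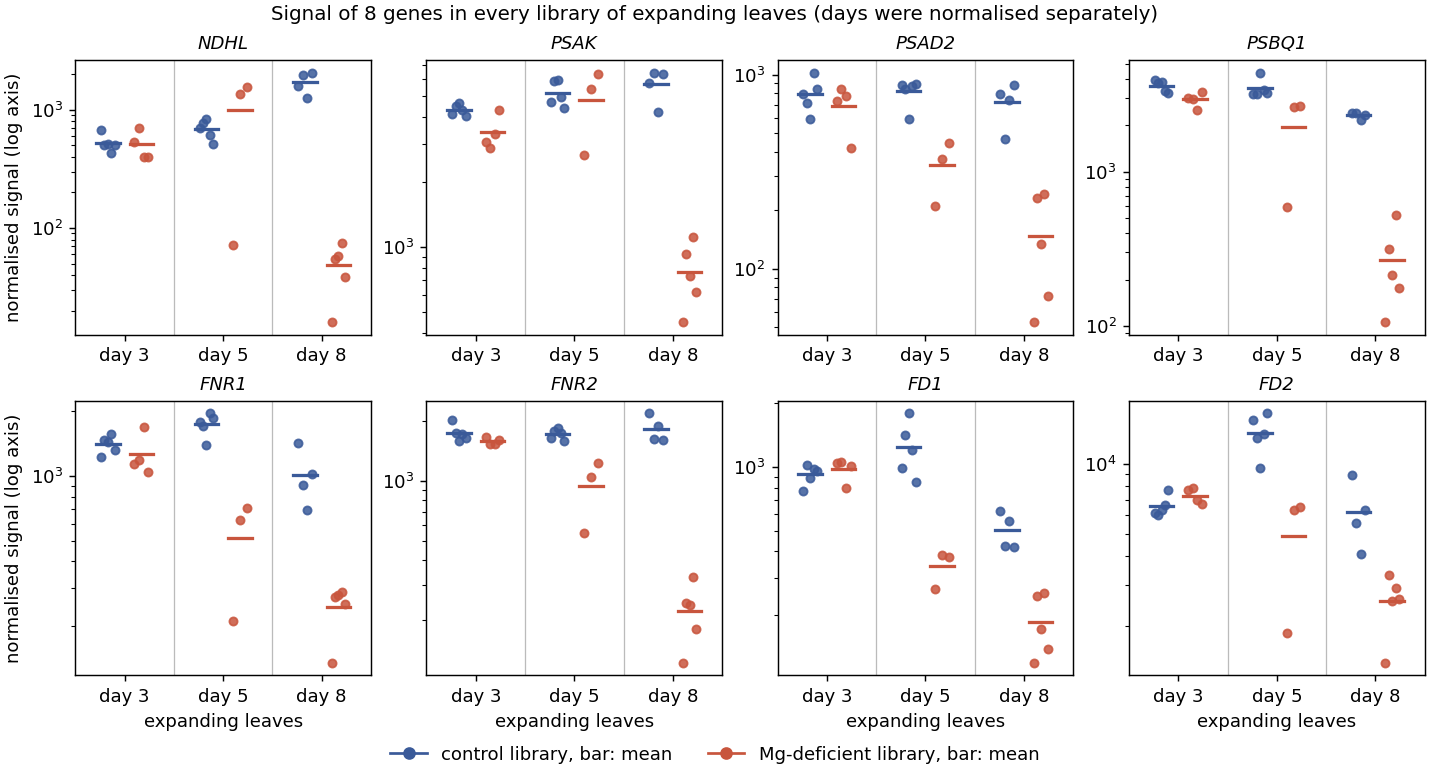
Normalised signal (vertical axis, log scale) of 8 genes in every library of expanding leaves, by day (horizontal axis), with a point for each library and a bar at the group mean; days were normalised separately. On day 8 the groups are apart for all 8 genes, and on day 5 the Mg-deficient libraries of NDHL lie at 72.24, 1367 and 1565, on both sides of the controls at 513.7 to 840.8.

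On day 8 in expanding leaves, all 35 genes fell, where 14.9% of all 15523 genes tested were called lower and 30.8% higher. The groups were apart for all 35, with the Mg-deficient libraries below, against 12.9% of all genes. The median log2 fold change was -2.44 against 0.63 over all genes. Scaling by the median of ratios moved the median of all genes to 0.02, that of the 35 genes to -3.06, and the calls from 2317 lower and 4774 higher to 3467 lower and 3180 higher, and all 35 were still called lower. Relative to the median of all genes, the median of the 35 was -3.07 as deposited and -3.09 under median of ratios. Mg-deficient replicate 1 had the lowest signal for 33 of the 35 genes, and without it the median was -2.26.

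All 5 leaf mesophyll markers fell as well on day 8, and their summed signal ranged over 60656 to 73605 in the controls and over 13320 to 23569 under deficiency. Of the vascular markers, 2 of 5 tested fell (SUC2 among them), and voom called 3. At an unadjusted p under 0.05, 2 vascular markers were lower and 1 was higher. Their median log2 fold change was -0.21, with summed signals of 491.2 to 747.3 and 231.1 to 329.8. Of 4 guard cell markers tested, 0 were called by limma or voom (0 at an unadjusted p under 0.05), with sums of 153.1 to 272.2 and 101.3 to 206. Their part in the fall of the 35 genes was not tested.

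The photosystem I genes fell by 2.0 (PSAH2) to 2.98 (PSAN) on the log2 scale on day 8, with a median of -2.38. PSAK, which had the smallest difference of day 5, fell by 2.93 (SE 0.25, adjusted p = 2.7e-06), to 13.54% of the control mean. The 5 Mg-deficient libraries of PSAK lay between 448.1 and 1117 and the controls between 4215 and 6434.

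The oxygen-evolving side fell by 1.98 (PSBO1) to 3.32 (PSBQ1), with a median of -2.88. The signal of PSBQ1 was 2406, 2402, 2169 and 2331 in control and 106, 314.9, 215.7, 526.7 and 177.1 in Mg-deficient libraries, 11.52% of the control mean (adjusted p = 1.5e-05). The controls stood within a narrow band and the highest Mg-deficient library was far below it. PSBQ2 fell by 2.95 and PSBP1 by 2.81. The other photosystem II genes fell by 1.97 (PSBX) to 2.78 (PSBW), with a median of -2.44.

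Among the carriers the log2 fold changes of day 8 ran from -1.28 (FD2) to -3.09 (FNR2), with a median of -2.21. The 2 ferredoxin genes had the smallest falls of the 35. FD2 had signals of 8962, 5532, 4074 and 6322 in control and 1383, 3313, 2564, 2906 and 2624 in Mg-deficient libraries (-1.28, SE 0.28, adjusted p = 0.0023). FD1 had 618.3, 422.7, 559.8 and 418.6 against 119, 246.1, 171.6, 254.4 and 138.9 (-1.48, SE 0.26, adjusted p = 0.00058). The means of the Mg-deficient libraries were 41.11% of control for FD2 and 36.84% for FD1, and neither gene overlapped between the groups. PETC, which had not passed on day 5, fell by 2.38, PETM by 2.76, PETE1 by 1.72 and PETE2 by 2.91.

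The ATP synthase genes fell by 2.22 (ATPC1), 2.87 (ATPD) and 2.37 (ATPG) on day 8. NDHL had the largest fall of the 35 genes. Its signal was 1579, 1986, 1266 and 2065 in control and 16.01, 54.8, 58.06, 75.2 and 38.18 in Mg-deficient libraries, 2.81% of the control mean (-5.26, SE 0.38, adjusted p = 7.1e-07). The lowest control library (1266) was far above the highest Mg-deficient library (75.2).

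Between days 5 and 8 the response of expanding leaves was compared by testing, gene by gene, how far the log2 fold changes lay apart. It was lower on day 8 for 17 of the 35 genes and higher for 0 (limma, with 25 lower and 0 higher at an unadjusted p under 0.05, and 0 called higher with voom), where 3.53% of all 14584 genes were called lower. The median difference over the 35 was -1.41 against 0.78 over all genes. The count was 29 without Mg-deficient replicate 1 of day 5 and 31 under median of ratios, which moved the calls over all genes from 515 lower and 1923 higher to 1538 lower and 558 higher and the median of all genes to -0.06. The largest differences were those of NDHL (-4.94, SE 0.90, adjusted p = 0.0025), PSAK (-2.74, SE 0.42, adjusted p = 0.00035) and PSAN (-2.45, SE 0.39, adjusted p = 0.00037). PSBQ1 (-2.21, SE 0.58, adjusted p = 0.014) and FNR2 (-2.14, SE 0.38, adjusted p = 0.00085) came next. Also called were PSAE1, PSAE2, PSAG, PSAH1, PSBO2, PSBP1, PSBW, PETC, PETM, ATPC1, ATPD and ATPG, so that all 4 genes of the ATP synthase and the NDH complex, none of which had passed on day 5, had a lower response on day 8. NDHL is the only NDH gene of these 4 and does not stand for its complex on day 5. Of 19 further genes of the NDH complex and of cyclic electron flow, 18 fell on that day.

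The other 18 genes did not pass. Among them, by a choice made after the values were seen, were FNR1, PETE1, FD1 and FD2, the 4 carriers with the largest falls of day 5. The differences between the days were -0.12 (SE 0.45) for FNR1, -0.10 (SE 0.43) for PETE1, 0.35 (SE 0.38) for FD1 and 0.37 (SE 0.53) for FD2. Under median of ratios those of FD1 and FD2 turned to -0.57 and -0.55.

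**Figure D4:**
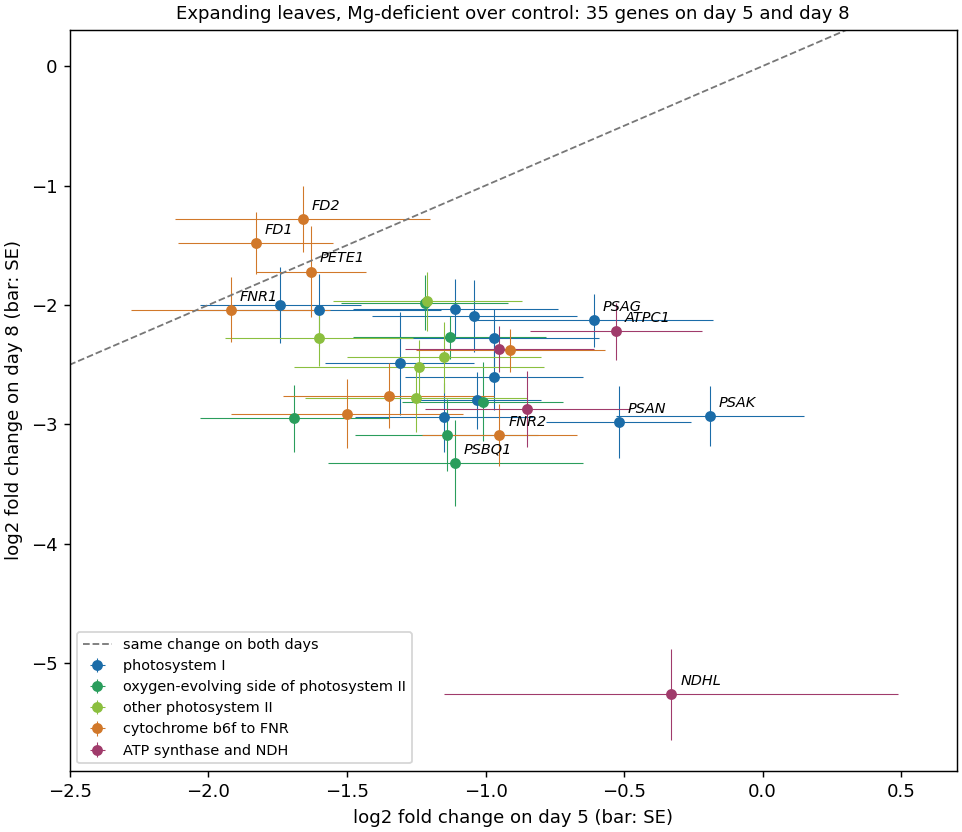
Log2 fold change of signal in expanding leaves on day 5 (horizontal axis) and day 8 (vertical axis) for the 35 genes, with bars of 1 SE and the line of equal change. FD1 and FD2 lie above the line, the points of FNR1 and PETE1 next to it, and NDHL lies farthest below it, at -0.33 and -5.26.

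In mature leaves no gene of the 35 passed the test on day 5. None was called lower or higher by limma or voom (0% of all 15243 genes were called lower). At an unadjusted p under 0.05, 0 were lower, against 4.43% of all genes, and 3 were higher, against 2.52%, namely PSAE1 (0.49), PSAN (0.46) and PSBQ2 (0.68). The response of expanding leaves on day 5 was lower than that of mature leaves for 24 of the 35 genes and higher for 0 (limma, with 30 lower and 0 higher at an unadjusted p under 0.05, and 0 called higher with voom), where 10.8% of all 14522 genes were called lower. The median difference was -1.44 against -0.32 over all genes. Under median of ratios 24 were again lower, with 1311 lower and 1831 higher calls over all genes in place of 1573 and 1446.

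The largest of these differences between leaf types were those of PSBQ2 (-2.37, SE 0.46, adjusted p = 0.00085), FD1 (-2.33, SE 0.39, adjusted p = 0.00016) and PSAH2 (-2.19, SE 0.37, adjusted p = 0.00026). The smallest was that of PSAK (-0.31, SE 0.40). PSAF, PSAG, PSAK, PSBQ1, PSBW, PSBY, PETC, ATPC1, ATPD, ATPG and NDHL did not pass. Libraries of both leaf types on a day could share plants, which the labels do not pair.

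On day 8 in mature leaves 2 of the 35 genes fell, where 0.173% of all 13314 genes were called lower and 3.43% higher. NDHL had signals of 825.2, 576.9, 736.1 and 1239 in control and 297.4, 428.8, 413.6 and 121.3 in Mg-deficient libraries (-1.52, SE 0.38, adjusted p = 0.026). The groups did not overlap. PSAG had 5783, 7630, 8393 and 7854 against 5163, 5017, 5963 and 3406 (-0.62, SE 0.17, adjusted p = 0.038), and control replicate 1 lay below the highest Mg-deficient library.

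Both calls of mature leaves depended on single libraries, since 0 were left without control replicate 3, control replicate 4 or Mg-deficient replicate 4, 1 without control replicate 1, control replicate 2 or Mg-deficient replicate 2, and 3 without Mg-deficient replicate 1. They also depended on the scaling. As deposited the median log2 fold change of all genes was 0.91 on this day and that of the 35 genes -0.23. Under median of ratios these were -0.80 and -2.03, 26 of the 35 were called lower, and the calls over all genes turned from 23 lower and 457 higher to 481 lower and 89 higher. Relative to all genes the median of the 35 was -1.13 and -1.23. PETM (-0.83, adjusted p = 0.060) and ATPC1 (-0.82, adjusted p = 0.10) did not pass, with all Mg-deficient libraries below all controls, and both were called by voom. Such a separation was found for 4 of the 35 genes, NDHL among them, and for 167 of all 13314 genes. The summed signal of the mesophyll markers, 1 of which fell, ranged over 25468 to 32073 in the controls and over 16633 to 27415 under deficiency.

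In mature leaves on day 8 the log2 fold changes of PETE1 and PETE2 and of FD1 and FD2 had opposite signs, and that of PSBO1 was 0.00 beside a value below 0 for PSBO2. None of these 6 genes was called. PSBO1 had signals of 1634, 1188, 1679 and 1289 in control and 2272, 964.6, 1601 and 1206 in Mg-deficient libraries (0.00), and PSBO2 184.9, 327.5, 301.6 and 221 against 202.8, 130.1, 147.3 and 232.1 (-0.54). PETE1 had 101.2, 64.56, 9.148 and 123.2 against 152.1, 28.04, 89.82 and 75.34 (0.47), and PETE2 2710, 2613, 2232 and 2035 against 2701, 1147, 2449 and 1400 (-0.40). FD1 had 226.1, 214.1, 122.5 and 200.4 against 261.6, 157.1, 174.2 and 202.7 (0.07), and FD2 2870, 2164, 2324 and 2671 against 3756, 1441, 2363 and 1605 (-0.23). The groups overlapped in all 6 genes, and under median of ratios all 6 log2 fold changes were below 0.

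In roots few reads fell on these genes. Their share of reads was 0.0150 to 0.0221% in all libraries but control replicate 3, where it was 0.0705% (95% Wilson interval 0.0669 to 0.0743%, 1387 reads; the interval covers counting error only). That library also had the highest summed signal of the mesophyll markers, 809.6 against 169.3 to 306.9 in the others. Of the 35 genes 25 passed the filter on low signal, which falls to 17 without control replicate 3, and 0 were called lower by limma or voom, where 0.112% of all 16905 genes were. At an unadjusted p under 0.05 PETC alone was lower (-1.64, adjusted p = 0.36), against 6.12% of all genes. The signal of PETC was 1.673 to 20.17 in control roots (median 6.774) and 3.556, 2.139 and 0 in Mg-deficient roots, and the groups overlapped.

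Of the 35 genes, 16 form 8 pairs that encode the same protein, with 63.3% (PETE1 and PETE2) to 93.3% (PSAD1 and PSAD2) amino acid identity and no shared exact run of 50 bases, the read length, in their RefSeq transcripts. The log2 ratio of the 2 signals of a pair within a library does not depend on scaling, and was compared by exact 2-sided permutation tests over libraries, 50 in all. Of these, 9 had an unadjusted p under 0.05, 7 of them at the smallest p their design allows, and 0 passed after adjustment (smallest adjusted p 0.112), so that no change of a ratio is called. Because the genes of a pair differ in length, only the change of a ratio is read.

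For FNR1 and FNR2, the leaf ferredoxin-NADP+ reductases, the difference had opposite signs on days 5 and 8 of expanding leaves. This pair was chosen after its values were seen. On day 5 in expanding leaves the log2 ratio of FNR1 to FNR2 was 0.10, -0.06, -0.42, 0.16 and 0.22 in control and -1.36, -0.75 and -0.79 in Mg-deficient libraries. The difference was -0.97 (exact permutation p = 0.0179, the smallest possible, adjusted p = 0.112), and the groups did not overlap. On day 8 the ratio was -0.63, -0.85, -1.45 and -0.65 in control and 0.14, 0.16, 0.22, -0.20 and 0.49 in Mg-deficient libraries, a difference of 1.06 (exact permutation p = 0.00794, the smallest possible, adjusted p = 0.112). Here the Mg-deficient libraries were all higher. In mature leaves on day 5 the difference was -0.46 (exact permutation p = 0.0179, the smallest possible, adjusted p = 0.112), also without overlap. The difference of day 5 had the same sign in both leaf types, was called in neither and was not compared between them.

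The signals behind these ratios show both genes lower on both days. FNR2 had 1650, 1776, 1853, 1751 and 1590 in control and 547.6, 1047 and 1228 in Mg-deficient libraries on day 5, and 2189, 1633, 1890 and 1601 against 122, 244.1, 239.1, 331 and 179.9 on day 8. FNR1 had 1419, 908.3, 690.9 and 1022 against 135, 273, 278.8, 288.4 and 253.3 on day 8. Of the other pairs, 3 differed on day 8 at an unadjusted p under 0.05. The ratio of PSBO1 to PSBO2 was higher in Mg-deficient leaves by 1.11 (exact permutation p = 0.00794), that of PETE1 to PETE2 higher by 1.19 (exact permutation p = 0.0159) and that of PSAH1 to PSAH2 lower by 0.80 (exact permutation p = 0.0159), each with an adjusted p of 0.112. PSAE1 to PSAE2 differed in expanding leaves on day 5 (0.18, exact permutation p = 0.0179, adjusted p = 0.112). In mature leaves, PSAH1 to PSAH2 differed on day 5 (-0.31, exact permutation p = 0.0179, adjusted p = 0.112). PSAD1 to PSAD2 differed there on day 3 (0.23, exact permutation p = 0.0286, adjusted p = 0.159).

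**Figure D5:**
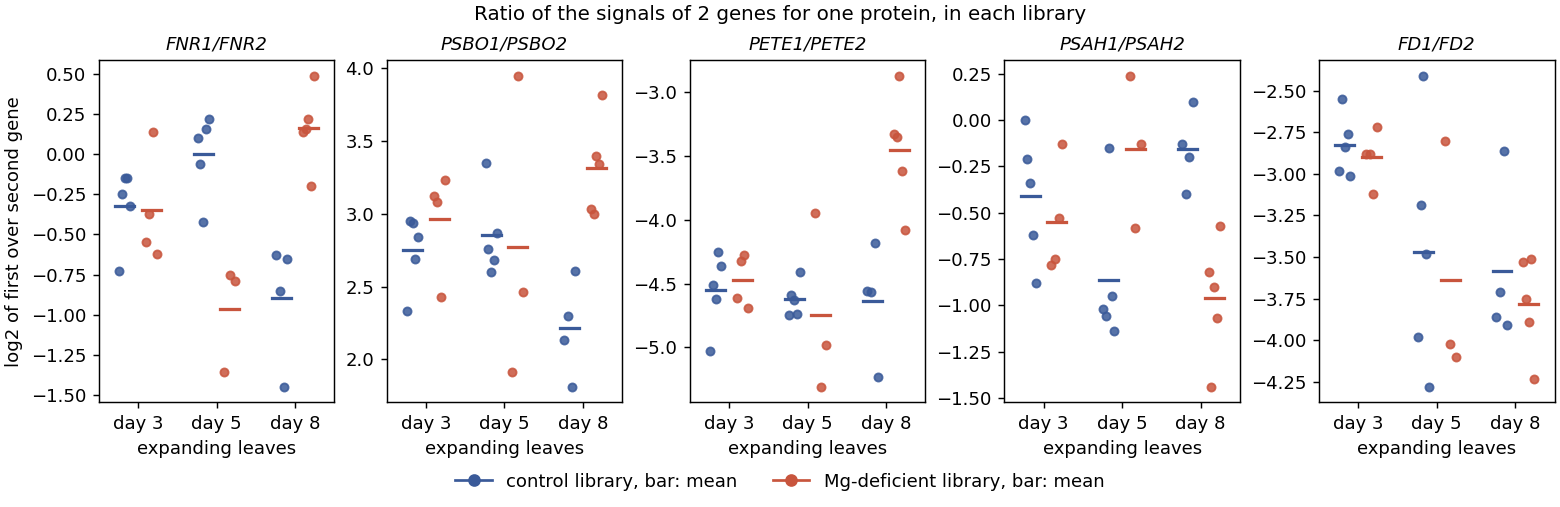
Log2 ratio of the signals of the first over the second gene of 5 pairs (vertical axis) in each library of expanding leaves, by day (horizontal axis), with a bar at the group mean. For FNR1 over FNR2 the Mg-deficient libraries lie below the controls on day 5 (difference -0.97) and above them on day 8 (difference 1.06), while those of FD1 over FD2 overlap with the controls on all 3 days.

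Other nuclear genes of the same processes, taken from lists, were described by counts, beside the 14.8% of all genes called lower on day 5 and 14.9% on day 8. The lists were chosen with earlier results of these data known, so that their counts are no independent support. Of 19 further genes of the NDH complex and of cyclic electron flow, 18 fell in expanding leaves on day 5 (median -1.85, or 17 with a median of -1.20 without Mg-deficient replicate 1) and 17 on day 8 (median -3.49). Among them, PNSL2 (AT1G14150) and PNSL5 (AT5G13120), for lumenal subunits of the NDH complex, fell by 2.54 and 1.54 on day 5. On day 8 NDHU (AT5G21430), for a subunit at the ferredoxin side, fell by 4.44 and PNSL3 (AT3G01440), for another lumenal subunit, by 6.15, from a mean of 277 ± 30.4 (SD, n = 4) to 3.64 ± 2.23 (SD, n = 5).

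Of 21 genes of photosystem assembly and repair, 8 fell on day 5 (median -1.29, or 11 with a median of -0.76 without Mg-deficient replicate 1), and 17 fell and 1 rose on day 8 (median -1.70). TLP18.3 (AT1G54780) and VAR1 (AT5G42270), both known from the repair of photosystem II, fell by 1.71 and 1.29 on day 5, and the assembly factors CYP38 (AT3G01480) and HCF136 (AT5G23120) by 3.21 and 2.78 on day 8. Of 5 thylakoid kinases, phosphatases and the terminal oxidase, 1 fell on day 5 (3 without Mg-deficient replicate 1) and 3 on day 8. STN8 (AT5G01920), the kinase of photosystem II core proteins, fell by 3.19 on day 5 on the log2 scale and stood at -3.24 on day 8. PBCP (AT2G30170), the phosphatase that acts against it, had -2.87 on day 5 (adjusted p = 0.052) and fell by 2.19 on day 8.

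Of 3 genes for the ferredoxin of non-photosynthetic plastids and its reductases, 1 rose on day 5, where 13.7% of all genes were called higher, and 2 rose on day 8, where 30.8% were. FD3 (AT2G27510), for the root-type ferredoxin, rose in expanding leaves from 41.1 ± 3.81 (SD, n = 5) to 163 ± 88.4 (SD, n = 3) on day 5 (1.82, adjusted p = 0.0037) and from 27.2 ± 29.5 (SD, n = 4) to 306 ± 55.3 (SD, n = 5) on day 8 (4.27, adjusted p = 0.00035). RFNR1 (AT4G05390), for a root-type reductase, rose by 2.39 on day 8 (adjusted p = 0.012, or 0.07 under median of ratios). RFNR2 (AT1G30510) went the other way. It had -0.28 on day 5, and on day 8 it was lower at an unadjusted p under 0.05 but was not called. Of these 4 lists, 0 genes in the remaining 5 tables were called by limma or voom, of 48 tested in each leaf table, and 25 in roots. Those at an unadjusted p under 0.05 numbered 0 on day 3 in both leaf types, 3 and 4 in mature leaves on the later days, and 5 in roots. Their directions were mixed in each of the last 3 tables. Over all genes, 676 were lower and 384 higher of 15243 in mature leaves on day 5. The numbers were 176 and 2438 of 13314 on day 8, and 1035 and 813 of 16905 in roots. The summed signal of the 6 root markers in expanding leaves ranged on day 5 over 0 to 34.95 (control) and 0.03382 to 1.051 (Mg-deficient), and on day 8 over 0 to 1.084 and 3.056 to 8.219.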

How the data were processed

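RNA from 58 libraries was sequenced by the authors as strand-specific 50 bp single-end reads, mapped to TAIR10 and counted per gene; versions of the aligner and counter are not given in the sources used here, and the submitters' processing notes name R 3.5.0. Of 6 samples lysed per group at least 3 were selected on RNA quality. The deposited values are a normalised signal, which the authors made with edgeR by adjusting counts to a common library size within each of 7 tables. Undoing that adjustment with a dispersion of 0.05 gave whole reads for 97.0 to 100.0% of values per library (within 0.001 of the signal of a whole read), from which depths and read shares were taken. No column was left unmatched (0).

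Groups were taken from the labels. The study used an exact test on counts; because the deposited signal is normalised, limma 3.58.1 in R 4.3.3 (lmFit, eBayes with trend) was fitted per table to log2(signal + 1) for genes whose signal averaged at least 5, 2-sided, without covariates, with Benjamini-Hochberg adjustment over all genes tested and calls at an adjusted p under 0.05. Fold changes are on this scale, which understates those of low genes. Differences of response used the difference of 2 log2 fold changes over the root of the summed squared SEs, with Satterthwaite degrees of freedom. Pairs were compared by exact permutation. Scripts were tested on simulated data and run with Python 3.11.15, numpy 2.4.6, pandas 2.3.3, matplotlib 3.10.9 and Biopython 1.88. All 35 loci matched RefSeq (TAIR10.1), the source of promoters and transcripts.

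The 35 genes and the lists were chosen with earlier results of these data known. All 35 are named. Values per library are given for the genes with the 2 largest and 2 smallest log2 fold changes of a table with calls, for pairs differing in call or sign and for genes called in mature leaves, and list genes are the 2 with the smallest p on days 5 and 8 of expanding leaves. Other choices were made after seeing values, as was leaving out single libraries in the differences of response. Alternatives were pseudocounts of 0.25 and 5, no filter and a mean of at least 20, median-of-ratios scaling, array weights, voom on recovered reads, a replicate block and leaving out each library. The replicate numbers were checked for pairing: the correlation of deviations of same-numbered libraries ran from -0.10 to 0.17, and in no table was every pair over 0.1, so that the numbers were not taken to pair the samples.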

Additional observations from a re-analysis of the deposited data

Results flagged for a closer look

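In 3 of 37 groups of at least 4 libraries tested, 1 library lay far from the others by Dixon's criterion, which chance gives in about 1 of 20 groups. In expanding leaves on day 5, control replicate 3 was the lowest control for PSAD2 (588.9) and the highest for PSBQ1 (4405), so that the same library stood apart in both directions. On day 8, Mg-deficient replicate 1 was the lowest for FNR1 (135), as it was for 33 of the 35 genes. The fall of PSAD2 and that of FNR1 passed the test with and without these libraries.

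The response differed between leaf types on day 5 for 24 of the 35 genes, all lower in expanding than in mature leaves, with the largest differences of log2 fold changes for PSBQ2 (-2.37), FD1 (-2.33) and PSAH2 (-2.19). It differed between days 5 and 8 of expanding leaves for 17 genes, all lower on day 8, with the largest differences for NDHL (-4.94), PSAK (-2.74), PSAN (-2.45), PSBQ1 (-2.21) and FNR2 (-2.14). Both sets of differences use the same libraries of expanding leaves on day 5. Without Mg-deficient replicate 1 of that day the differences between the days were called for 29 genes.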

How the results depend on the processing

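The calls of all 35 genes in expanding leaves on day 8 held under the 8 other settings and the 9 fits that left out a library. The count of genes called lower in expanding leaves on day 5 stayed between 19 and 27 under the settings other than the replicate block and between 10 and 28 when a library was left out, and the count called higher between 0 and 1. With the replicate number as a block, 2 genes were called on day 5, and the block changed the count of calls of genes in no other table. Fewer libraries or degrees of freedom are part of both constructions. In mature leaves on day 8 the count of 2 became 1 with a mean signal of at least 20, 26 under median of ratios, 1 with array weights and 4 with voom, and 0 to 3 when a library was left out. In expanding leaves on day 3, array weights called 1 gene. Differences between days 5 and 8 numbered 31 under median of ratios and 12 to 29 without a library, and those between leaf types 21 to 28 and 17 to 29. Without Mg-deficient replicate 1 of day 5 the differences between leaf types of PETM and PETE2 were smaller by over 1.5 times. The pairs had 0 calls under each setting. Leaving out a library raises the smallest p that its table allows, so that those fits say little on the pairs.

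Over all 35 genes and every setting, 0 called values turned sign, while of the uncalled ones up to 9 turned in mature leaves on day 3, 6 on day 5 and 7 on day 8, up to 6 and 2 in expanding leaves on days 3 and 5, and up to 7 in roots. Among the values named here, signs turned in expanding leaves on day 5 for PSAK under median of ratios (0.11), array weights (0.10) and leaving out a library (-0.44 to 0.19), for NDHL under array weights (0.85) and leaving out a library (-1.10 to 1.11), and for RFNR2 under median of ratios (0.01). In mature leaves on day 8 this held for PSBO1 under median of ratios (-1.80), voom (-0.03) and leaving out a library (-0.22 to 0.19), PETE1 under median of ratios (-1.29) and leaving out a library (-0.34 to 0.92), and FD1 under median of ratios (-1.72) and leaving out a library (-0.13 to 0.18). Of the differences between leaf types, that of NDHL was 0.23 with array weights and -1.51 to 0.70 without a library, and that of PSAK -0.55 to 0.07. Of those between days, FD1 had -0.57 under median of ratios, FD2 -0.55 under median of ratios, -0.09 with array weights and -0.22 to 0.68 without a library, FNR1 -0.67 to 0.20 and PETE1 -0.33 to 0.12 without a library. The cause was not tested. In roots 291 to 1387 reads per library fell on the 35 genes, of 1615273 to 2785267 reads in all, which limits the precision of their values.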
